A study of Capra hircus with 3 samples.

Results

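The cytosolic ribosomal protein genes encode the protein subunits of the ribosome that translates nuclear mRNAs. The genes were chosen by symbol: every protein-coding gene of goat whose symbol begins with RPL, RPS or RPLP and a number, or is RPSA, without the RPS6K kinases and without paralogs whose names end in L or L1. The gene table held 74 such genes, and 62 of them had a deposited FPKM (fragments scaled by transcript length and library size) under their gene ID, out of 13023 protein-coding genes in all. They comprised 33 genes of the large subunit, 2 of its stalk, 26 of the small subunit and RPS19BP1, which encodes a protein that binds RPS19 and is no subunit. Another 12 genes, among them RPLP1, RPL13, RPS2 and RPS18, were not analysed here.

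In every ribosome the small subunit holds the mRNA and reads its codons, while the large subunit joins the amino acids and carries the tunnel through which the new chain leaves. One copy of nearly every ribosomal protein is built into each particle, together with the ribosomal RNAs. The mRNAs of these proteins belong to a class that begins with a run of pyrimidines at its 5′ end, the TOP mRNAs, whose translation depends on the mTOR kinase. A lactating mammary gland makes large amounts of casein and whey protein on ribosomes bound to the endoplasmic reticulum.

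The 3 groups compared were mammary tissue of 5 healthy Laoshan dairy goats that were 4 years old and in the third lactation. Tissue was removed by surgery under general anaesthesia on day 10 (early lactation), day 90 (peak lactation) and day 210 (late lactation) after the goats had given birth. RNA of the 5 goats was mixed in equal amounts within a stage, so that each stage is 1 library, the differences between goats cannot be seen, and no difference given below has a replicate check or a p-value. The tissue is a mixture of cell types, and fewer cells of a type and less RNA per cell cannot be told apart in it.

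The libraries differed in ways that touch the values below. A single locus without a gene ID held 30.0%, 46.0% and 29.9% of the FPKM summed over all loci in the early, peak and late library. The protein-coding genes summed to 478221, 275836 and 421182 FPKM, while their median log2 ratio was near 0 in every comparison. Markers of the secretory epithelium were present in all libraries, with CSN3, the kappa-casein gene, at 25445, 3989 and 27391 FPKM, whereas LALBA, the alpha-lactalbumin gene, was listed at 0 in the late library and at 70053 FPKM in the early library. Ratios of annotated lncRNA genes between the libraries labelled peak and late mostly ran opposite to those in a supplementary table of the study, so each library is called by its label and values with these labels exchanged are given in the closing section. The number of reads behind each FPKM is unknown, and no interval can be given.

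All 62 genes were above 0 in all 3 libraries, and most were among the abundant mRNAs of the gland. The median level of the members was 423 FPKM in the early, 314 FPKM in the peak and 365 FPKM in the late library, where the median of all protein-coding genes was 7.003, 7.21 and 6.78 FPKM. At least 100 FPKM were reached by 45 of the 62 genes in every library. Of the 50 protein-coding genes with the highest mean FPKM, 22 were members. Summed over the members, the level was 37776 FPKM in the early, 25169 FPKM in the peak and 29382 FPKM in the late library.

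The highest of them was RPS29, a small zinc-binding protein of the small subunit, with 2629 FPKM in the early, 1963 FPKM in the peak and 2168 FPKM in the late library. RPS7 and RPS21, also of the small subunit, were among the 10 highest as well. RPS7 had 1609, 1120 and 1184 FPKM in the early, peak and late library, and RPS21 had 1281, 809 and 1012 FPKM. In each of these genes the early library was highest and the peak library lowest. Of the large subunit, the 10 highest included the stalk proteins RPLP2 and RPLP0, described further on, RPL14, with 1569, 986 and 1231 FPKM, and RPL26 and RPL31, which lie beside the opening of the exit tunnel. RPL26 had 1312, 965 and 1133 FPKM and RPL31 had 1344, 925 and 1131 FPKM in the early, peak and late library.

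**Figure D1:**
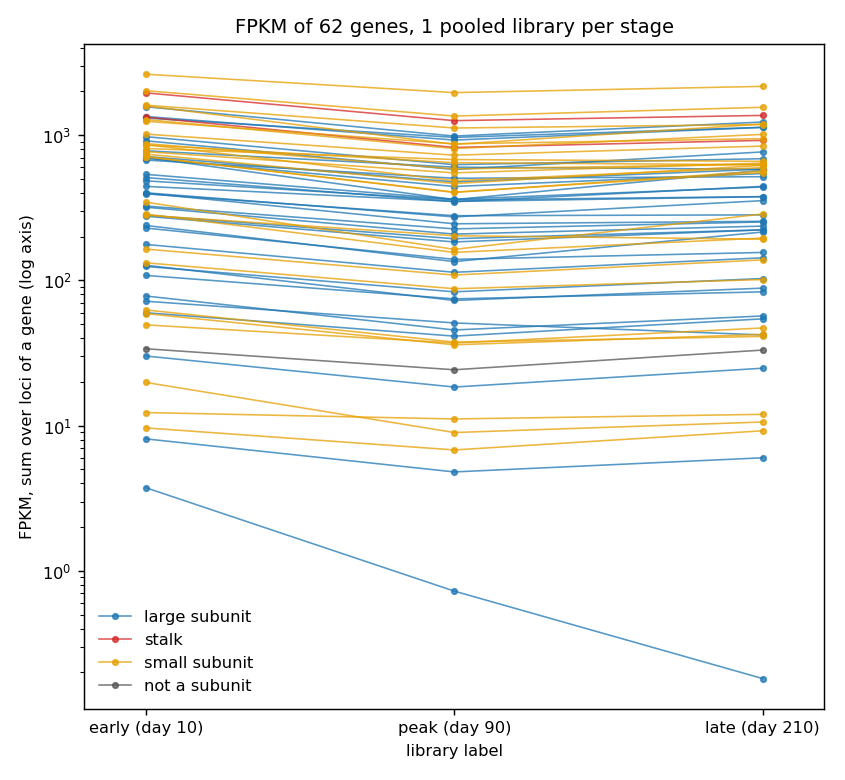
FPKM on a log axis in each library, ordered by its label from early to late lactation, with 1 line per gene for the 62 members, coloured by subunit, and no error bars since each stage is 1 pooled library. All lines have their highest point in the early library, and the line at the bottom, RPL23A at 3.73, 0.725 and 0.181 FPKM, is the steepest.

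The order of the members by level was nearly the same in each library. Across the 62 genes, Spearman's rho of the FPKM was 0.993 between the early and peak, 0.996 between the early and late and 0.991 between the peak and late library, as a description over genes that share the library, the division by length and the sources of reads. The spread among members within 1 library was far wider than any difference between libraries, from 0.181 FPKM for RPL23A to 2168 FPKM for RPS29 in the late library. Genes of this family have many near-identical copies in mammalian genomes, and how the authors assigned reads among such copies was not given in the sources used here, so the level of any single member is uncertain.

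At the lower end, 5 members stayed under 20 FPKM in all libraries. RPL5, which carries the 5S RNA into the large subunit, had 8.10, 4.80 and 6.002 FPKM in the early, peak and late library. RPL11, its partner in the 5S particle, had 125, 83.4 and 103 FPKM. The listed levels of these partners were far apart, whereas both were highest in the early and lowest in the peak library. The locus of RPL5 is unusual, as described below, so its level is uncertain. RPS24 had 9.64, 6.80 and 9.21 FPKM and RPS25 had 12.3, 11.1 and 12.0 FPKM, both of the small subunit. RPS25 lies at the exit side of the head of the small subunit and is needed for initiation at several viral internal entry sites.

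RPL23A, a protein at the opening of the exit tunnel to which factors that handle new chains bind, was the lowest member. It had 3.73 FPKM in the early, 0.725 FPKM in the peak and 0.181 FPKM in the late library. It was the only member under 1 FPKM in any library, and its log2 ratios, given below, lie far outside those of the other 61 genes. Its deposited locus, on scaffold NW_005100884.1 from 5652894 to 5655781 in an assembly that the values do not name, spans 2888 nt.

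For 6 members the deposited locus was unusual. The loci of RPS19, RPS6 and RPL5 were also listed for another entry, and those of RPS6 and RPL5 spanned 117279 and 50649 nt. RPL10 was listed at a locus of 560 nt, and RPS27 and RPS25 at loci of 3169 and 3643 nt. Apart from RPS19, the spans of these genes differed more than 1.5-fold from those in RefSeq's table of the ARS1.2 assembly. The median locus span was 3532 nt over all members and 22942 nt over all protein-coding genes, introns included.

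In the comparison of peak with early lactation, which asks how the gland differs between the start and the height of milk production, all 62 members had a lower FPKM in the peak library, against 49.4% of 13020 protein-coding genes. The median log2 ratio of peak over early lactation was -0.58 over the 61 members that reached 1 FPKM in each of both libraries, a 1.499-fold higher level in the early library, and -0.03 over all protein-coding genes. The ratios lay close together, with an interquartile range of -0.71 to -0.50 over members and of -0.38 to 0.35 over all protein-coding genes. A difference of at least 1.5-fold in either direction was reached by 31 of 62 members, against 36.8% of all protein-coding genes, and one of at least 4-fold by 1 member, RPL23A, against 3.56%. At least 2-fold lower in the peak library were 3 members, against 6.80% of all protein-coding genes, and 0 members were at least 2-fold higher, against 10.9%.

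These 3 were RPS10, RPS27 and RPL23A. RPS10, at the mRNA entry side of the small subunit, had 346 FPKM in the early and 163 FPKM in the peak library, a log2 ratio of -1.08, and 287 FPKM in the late library. RPS27, a zinc-finger protein of the small subunit, was the 1 member with more than 1 entry, and its 2 entries had the same coordinates. Their sum was 19.8 FPKM in the early, 8.96 FPKM in the peak and 10.6 FPKM in the late library. The higher entry had 19.4, 8.26 and 9.64 FPKM, while the other rose, with 0.414, 0.696 and 0.950 FPKM. For the sum, the log2 ratio of peak over early lactation was -1.15. RPL23A had a log2 ratio of -2.36 between the same libraries, or of -1.46 with a pseudocount of 1. RPS10 stood out from other abundant members, while RPS27 and RPL23A were at low levels throughout.

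The direction at peak lactation was shared by other abundant genes and depends on how the libraries are scaled. Among the 238 other protein-coding genes with a mean of at least 100 FPKM, 203 were also lower in the peak than in the early library, with a median log2 ratio of -0.61 and a wider interquartile range, -1.07 to -0.22. When each FPKM was divided by the protein-coding sum of its library, 11 of 62 members were lower in the peak library. The share of all protein-coding genes lower on this scale is not given here. The median log2 ratio of the members became 0.21 on it, and that of all protein-coding genes became 0.77. Without the 10 highest genes in the sum, these medians were -0.28 and 0.27. The difference between both medians was -0.56, which division of a library by a constant cannot alter, while the sign of the members' own ratio depends on the scale.

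The comparison of late with early lactation asks how the gland differs between the start and the end of milk production. All 62 members were lower in the late than in the early library, against 54.1% of 13004 protein-coding genes. The median log2 ratio of late over early lactation was -0.35 over 61 members, a 1.27-fold higher level in the early library, with an interquartile range of -0.46 to -0.27. Over all protein-coding genes the median was -0.01, with an interquartile range of -0.23 to 0.16. At least 2-fold lower in the late library was 1 member, RPL23A, against 6.74% of all protein-coding genes, and 0 members were at least 2-fold higher, against 1.97%. A difference of at least 1.5-fold in either direction was found for 5 of 62 members, against 17.8%.

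Of the 238 other genes with a mean of at least 100 FPKM, 100 were lower in the late than in the early library, and their median log2 ratio was 0.06. The 47 members with a mean of at least 100 FPKM were all lower, with a median of -0.35 and a range of -0.64 to -0.15. The 3642 other genes with a locus span under 10 kb had a median log2 ratio of -0.04 between these libraries and of -0.09 between early and peak lactation. The median of the members stayed below 0 under each scaling of late over early lactation, at -0.17 when divided by the protein-coding sum and -0.33 without the 10 highest genes in it.

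RPL23A had a log2 ratio of late over early lactation of -4.37, from 3.73 to 0.181 FPKM. The size of this ratio depends on the treatment of low values, as it was -3.77 with a pseudocount of 0.1 and -2.00 with a pseudocount of 1. RPS27 followed with -0.90, and the lowest of the other members was RPL30, named after its values were seen, with 71.9, 50.9 and 42.1 FPKM in the early, peak and late library and a log2 ratio of -0.77. Closest to 0 was RPS19BP1, the gene that encodes no subunit, with 33.8 FPKM in the early, 24.2 FPKM in the peak and 33.1 FPKM in the late library, a log2 ratio of -0.03. RPS25 and RPS24 were next to it, at -0.04 and -0.07, and both had low levels.

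**Figure D2:**
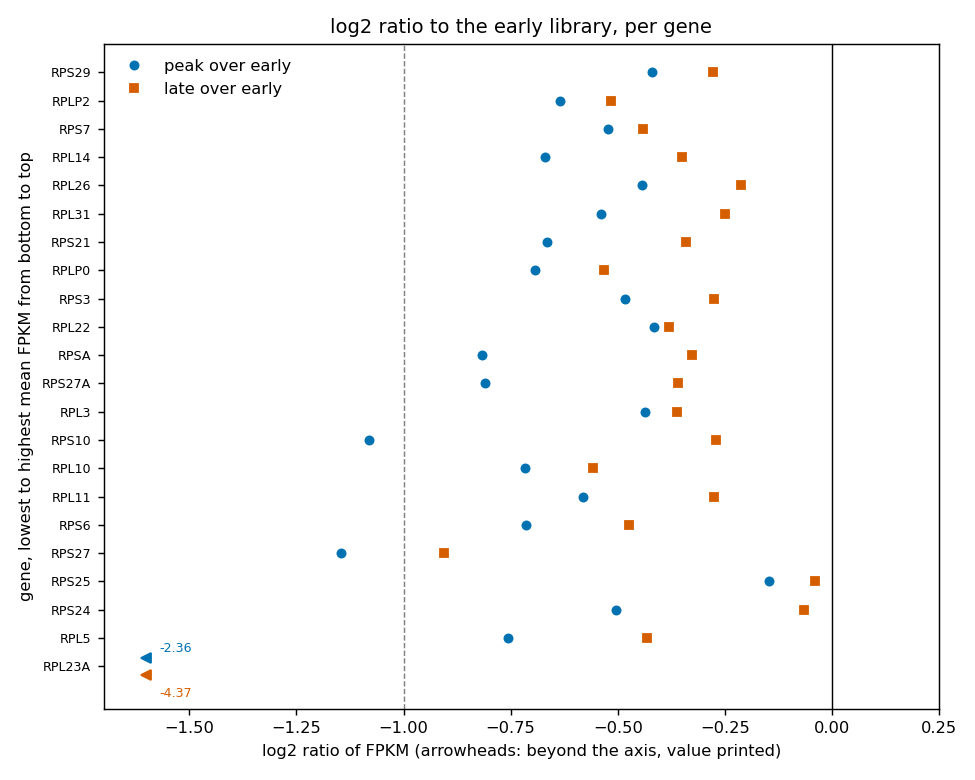
The log2 ratio of FPKM of the peak over the early library (circles) and of the late over the early library (squares) for 22 of the members named by a rule on level, size of the difference or role, ordered by mean FPKM, with a dashed line at a 2-fold lower level. All points lie left of 0, RPS10, RPS27 and RPL23A pass the dashed line, and the ratios of RPL23A, -2.36 and -4.37, lie beyond the axis.

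In the late library 56 of 62 members were higher than in the peak library, against 48.2% of 13015 protein-coding genes, and the median log2 ratio of late over peak lactation was 0.24 over members and 0.03 over all protein-coding genes. At least 2-fold higher were 0 members, against 8.56% of all protein-coding genes, and 1 was at least 2-fold lower, RPL23A with a log2 ratio of -2.00, against 17.4%. A difference of at least 1.5-fold in either direction was found for 4 of 62 members, against 44.0%. The 6 members lower in the late than in the peak library, named here after their values were seen, were RPL23A, RPL30, RPS28, RPS19, RPL37 and RPS14. Apart from RPL23A and RPL30, at -2.00 and -0.27, their log2 ratios lay between -0.08 and -0.04. The direction of this comparison held with the FPKM as deposited and when centred on the median gene, and was turned by both divisions, to a median of -0.37 by the protein-coding sum and of -0.04 without its 10 highest genes.

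Hence 56 of the 62 members had the order early, late, peak from highest to lowest FPKM, and the other 6 had the order early, peak, late. The first order was found in 15.2% of 13023 protein-coding genes. These comparisons share libraries, so the order repeats what each of them shows and adds no further evidence.

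The 33 genes of the large subunit without the stalk had median log2 ratios of -0.58 for peak over early, -0.34 for late over early and 0.28 for late over peak lactation. The 26 genes of the small subunit had -0.59, -0.37 and 0.23 for the same comparisons. Their median levels were further apart, at 394, 245 and 255 FPKM for the large and 725, 435 and 582 FPKM for the small subunit in the early, peak and late library.

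The stalk of the large subunit, which recruits the factors that bind GTP, is formed by RPLP0, RPLP1 and RPLP2. RPLP0, the base of the stalk and often used as a reference gene, had 1331 FPKM in the early, 823 FPKM in the peak and 921 FPKM in the late library. RPLP2 had 1955, 1259 and 1368 FPKM. Their log2 ratios were close to each other, at -0.69 and -0.63 for peak over early and at -0.53 and -0.52 for late over early lactation.

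RPL3, which reaches into the centre where peptide bonds form, had 485, 358 and 377 FPKM, and RPL10, which joins the large subunit in its last steps of maturation, had 229, 140 and 156 FPKM. The log2 ratio of peak over early lactation was -0.44 for RPL3 and -0.72 for RPL10. At the opening of the exit tunnel, RPL22 had 674, 505 and 518 FPKM, with a log2 ratio of -0.42 for peak over early and of -0.38 for late over early lactation. The 6 genes grouped at this opening other than RPL23A, a grouping made after the values were seen, had log2 ratios of -0.57 to -0.35 for peak over early and of -0.38 to -0.20 for late over early lactation.

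Along the path of the mRNA through the small subunit, RPS3, which lies at the entry and unwinds mRNA, had 1017, 728 and 841 FPKM in the early, peak and late library. RPSA, the laminin receptor protein on the exit side, had 710, 403 and 567 FPKM, with a log2 ratio of peak over early lactation of -0.82, against -0.48 for RPS3. RPS6, the target of S6 kinase and a common readout of mTOR signalling, had 59.0, 36.0 and 42.5 FPKM, with log2 ratios of -0.71 for peak over early and -0.48 for late over early lactation. The locus of RPS6 is listed for another entry as well, so this level is uncertain. RPS27A, made as a fusion with ubiquitin, had 710, 405 and 553 FPKM, with log2 ratios of -0.81 and -0.36.

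Some subunits are left out by the symbol rule. FAU, a fusion of a ubiquitin-like protein with a small subunit protein, had 941, 713 and 755 FPKM in the early, peak and late library. RACK1, a scaffold protein on the head of the small subunit, had 815, 536 and 594 FPKM. Both were highest in the early library and differed less than 2-fold between any pair of libraries. Among the 4 measured paralogs, RPL36AL had 645, 444 and 629 FPKM, and RPS27L, a paralog of RPS27 known as a p53 target, had 54.8, 42.3 and 62.4 FPKM and was highest in the late library.

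Other genes of translation were described as lists. The list of elongation factors and other genes with TOP mRNAs held 18 gene IDs, as TPT1 has 2. In the peak library 16 of 18 were lower than in the early library, against 49.4% of all protein-coding genes. The median log2 ratio was -0.45. In the late library 18 of 18 were lower than in the early library, against 54.1%, with a median of -0.38. EEF1A1, which brings aminoacyl-tRNA to the ribosome, had 259, 169 and 162 FPKM, and EEF2, which moves the ribosome along, had 469, 279 and 387 FPKM. The 2 exceptions at peak lactation were NAP1L1 and VIM, the latter with 282 FPKM in the early, 414 FPKM in the peak and 200 FPKM in the late library and the gene of the intermediate filament protein of mesenchymal cells. Between early and late lactation the median of this list was thus close to that of the ribosomal protein genes. For late over peak lactation it was 0.04, against 0.24 for the ribosomal protein genes and 0.03 for all protein-coding genes. In that comparison 10 of 18 were higher in the late library, against 48.2% of all protein-coding genes.

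The 22 measured initiation factors were lower in the peak than in the early library in 21 cases, against 49.4% of all protein-coding genes. Their median log2 ratio was -0.45. Between early and late lactation 9 of 22 were lower, against 54.1%, with a median of 0.04. The 72 genes of the mitochondrial ribosome, which translates only mitochondrial mRNAs, had a median of -0.34 for peak over early and of -0.02 for late over early lactation. Of these, 66 and 39 were lower, against the same shares, and 39 of 72, or 54.2%, is near the share of all genes. Of 33 genes of ribosome biogenesis, 26 were lower in the peak and 26 in the late library, against the same shares. Their medians relative to the early library were -0.22 and -0.16. Over these lists together, 2 genes of the mitochondrial ribosome were at least 2-fold lower between early and peak lactation, and 1 gene of ribosome biogenesis between early and late lactation, against the 6.80% and 6.74% of all protein-coding genes given above.

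**Figure D3:**
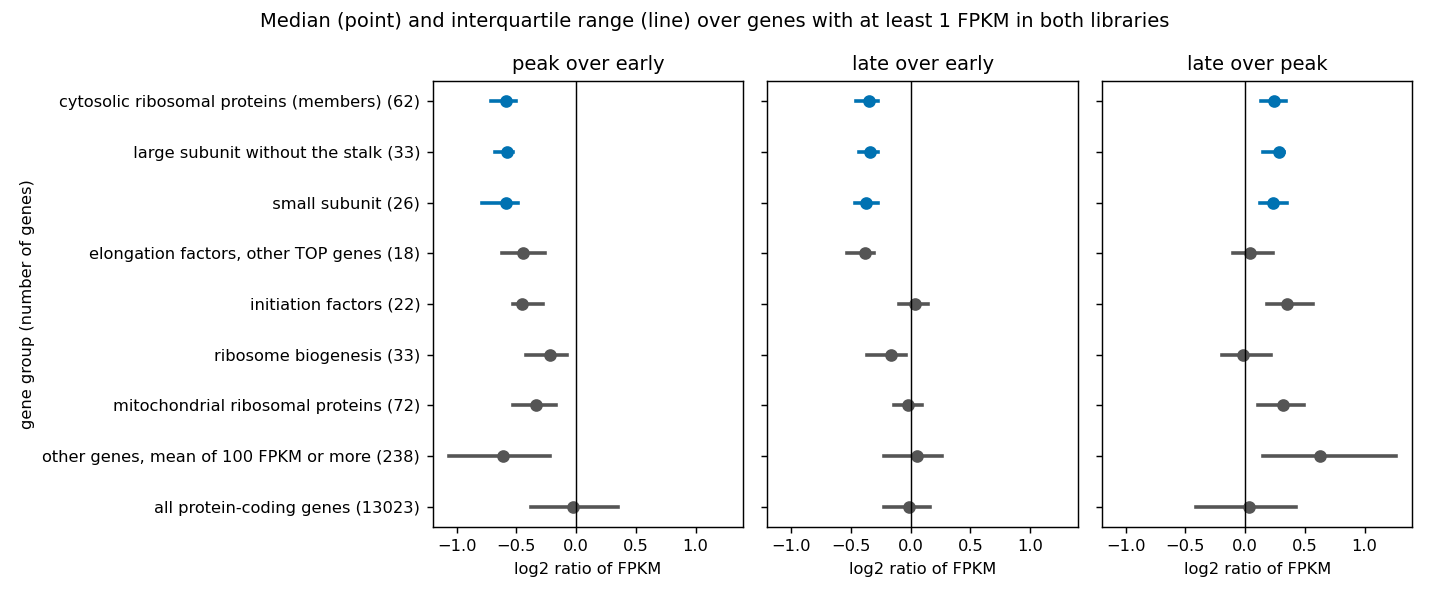
Median (point) and interquartile range (line) of the log2 ratio of FPKM in 3 comparisons for the ribosomal protein genes (blue) and other gene groups (grey), over genes that reached 1 FPKM in each of both libraries. For late over early lactation the ribosomal protein genes and the TOP list lie near -0.35 and -0.38, with ribosome biogenesis near -0.16. Initiation factors, mitochondrial ribosomal proteins and other abundant genes lie near 0 there. For peak over early lactation the TOP list and initiation factors both lie near -0.45 and other abundant genes near -0.61.

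Markers of other cells of the gland also differed between the libraries. The 8 leukocyte markers summed to 44.5 FPKM in the early, 90.3 FPKM in the peak and 26.6 FPKM in the late library. In the peak library 7 of 7 with a value were higher than in the early library, against 50.6% of all protein-coding genes. Of these, 5 were at least 2-fold higher, against 10.9%, while CD14 and CD68 had log2 ratios of 0.01 and 0.16. CD3E was listed at 0 in the early and the peak library. With the FPKM as deposited, the leukocyte sum was thus lowest where the ribosomal protein genes were intermediate, and highest where these were lowest. As a share of the protein-coding sum, both were highest in the peak and lowest in the late library. The shares in the early, peak and late library were 0.0093%, 0.0327% and 0.0063% for the leukocyte markers and 7.90%, 9.12% and 6.98% for the members. Without the 10 highest genes in that sum, the leukocyte share was highest in the peak library, but that of the members in the early library. The 7 markers of secretory epithelium summed to 181476, 46732 and 111630 FPKM, or to 111424, 31518 and 111630 FPKM without LALBA. Of these 7, CSN3, PAEP, LALBA and ELF5 were at least 2-fold lower in the peak than in the early library, against 6.80% of all protein-coding genes. EPCAM was lower with a log2 ratio of -0.37, and KRT8 and KRT18 were higher. The 5 fibroblast markers summed to 616, 517 and 502 FPKM, and their log2 ratios of peak over early lactation ran in both directions, at -1.07 for COL1A2, -1.06 for COL3A1 and -0.76 for COL1A1 but 1.03 for PDGFRA and 0.96 for DCN. For late over early lactation all 5 were lower, against 54.1% of all protein-coding genes, with a median of -0.31 and a range of -0.41 to -0.21. The 4 endothelial markers summed to 117, 104 and 126 FPKM, the 5 myoepithelial ones to 203, 208 and 188 FPKM, and the 3 measured adipocyte markers to 17.2, 5.52 and 6.16 FPKM, with PLIN4 listed at 0 in the late library. Red blood cell markers were not found by symbol. The part of these cell types in the levels of ribosomal protein genes was not tested.

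**Figure D4:**
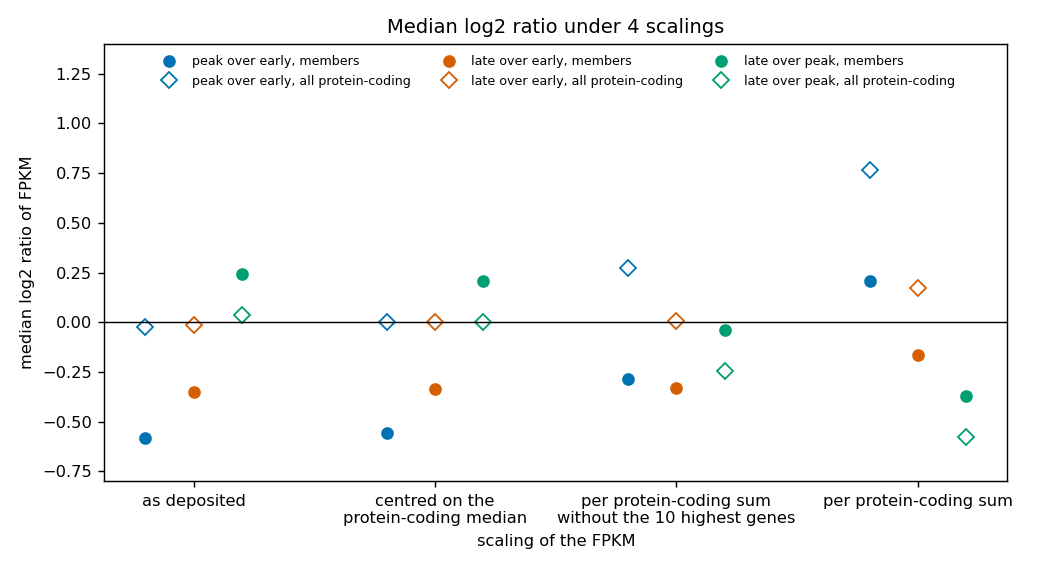
Median log2 ratio of the members (filled circles) and of all protein-coding genes (open diamonds) in 3 comparisons with the FPKM as deposited, centred on the protein-coding median, and divided by the protein-coding sum of each library without and with its 10 highest genes. The medians of late over early lactation stay below 0, from -0.35 to -0.17, while those of peak over early lactation run from -0.58 to 0.21 and those of late over peak lactation from 0.24 to -0.37.

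As a share of the protein-coding FPKM, the members made up 7.90% in the early, 9.12% in the peak and 6.98% in the late library. Without the 10 highest genes, of which RPS29 is one and the milk protein genes PAEP, LALBA, CSN1S1 and CSN3 are others, the shares were 14.0%, 11.3% and 10.95%. The share in the late library was therefore the lowest on both scales, while the peak library had the highest share on the first and a lower one than the early library on the second.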

How the data were processed

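The deposited FPKM of 50041 loci in 3 columns were analysed, 1 per library, with stages taken from the labels. According to the methods, trimmed reads were mapped by TopHat2 2.0.9 and assembled by Cufflinks 2.1.1 and Cuffmerge, short, single-exon and thinly covered transcripts and pseudogenes were removed, and the authors computed the deposited FPKM by Cuffdiff. The methods name different goat genome versions for mapping and assembly, and the values name neither. Whether the quantification used strand was not given in the sources used here. Of the deposited FPKM with 7 digits, 97.5% end in 5, the form that a mean of 2 values with 6 digits would have, and what was averaged is not stated.

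Loci whose ID ends in 1 NCBI gene ID were matched to the gene table of ARS1.2 and summed per gene. Ratios were taken from FPKM with 0 set to 0.001, differences called at 2-fold among genes above 0 in either library, and medians taken over genes with at least 1 FPKM in both. With 1 pooled library per stage no test was run, and the precision of each value is unknown. Counting was tested on simulated data. The members and lists were chosen with earlier results of these data known. The lists were written from general knowledge.

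Members named were the 10 highest and 4 lowest by mean FPKM, those at least 2-fold different, those with more than 1 entry, and RPLP0, RPLP1 (without a value), RPLP2, RPSA, RPS6, RPS27A, RPL10, RPL11, RPL5, RPS3, RPL3 and RPL22 for their roles. Some items are not reported here. Others are marked as named after their values were seen. The rule also asked for members listed at 0, of which there were 0. Alternatives were other fold thresholds, pseudocounts, a filter, loci, scalings and exchanged labels. No sequences were used, so promoter motifs were not analysed here. Python 3.11.15, numpy 2.4.6, pandas 2.3.3 and matplotlib 3.10.9 were used.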

Additional observations from a re-analysis of the deposited data

How the results depend on the processing

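Each stage has 1 pooled library, so no replicate could be left out, and a median counts as moved when its second decimal changes. No paired analysis was possible because pooling left no value for a single goat at any stage. At a fold of 1.5, 31 members differed for peak over early, 5 for late over early and 4 for late over peak lactation, against 36.8%, 17.8% and 44.0% of all protein-coding genes, and at a fold of 4 there was 1 for peak over early, against 3.56%. Divided by the protein-coding sum, the median log2 ratios were 0.21, -0.17 and -0.37 for peak over early, late over early and late over peak lactation, 11 members were lower in peak than in early and 59 lower in late than in peak lactation, and 1 differed 2-fold between early and peak. The median levels per 1000000 of that sum were 884, 1137 and 867 in the early, peak and late library. Without the 10 highest genes in the sum, chosen after seeing the data, the median ratios were -0.28, -0.33 and -0.0397, with 33 members lower in late than in peak lactation, 1 at 2-fold between early and peak, and median levels of 1677, 1533 and 1470 on the same scale. For all protein-coding genes the medians were 0.77, 0.17 and -0.58 by the first division and 0.27, 0.01 and -0.25 by the second. Their shares lower or 2-fold different on these scales are not given here. Centring gave medians of -0.56, -0.34 and 0.21 for the members. With the labels peak and late exchanged, the medians were -0.35, -0.58 and -0.24, the 2-fold counts 1 and 3 for the first 2 comparisons, 56 members were lower in late than in peak lactation, and RPL23A turned to a log2 ratio of 2.0004.

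The log2 ratios of RPL23A, which is near or under 1 FPKM in some libraries, were -1.46, -2.00 and -0.55 for peak over early, late over early and late over peak lactation with a pseudocount of 1, and -2.22, -3.77 and -1.55 with a pseudocount of 0.1. At least 1 FPKM in both libraries left 0 members at 2-fold for late over early and for late over peak lactation, since RPL23A drops out, as did a pseudocount of 1 for the latter, with a median of 0.23. With only the highest entry of each gene, 2 members differed between early and late lactation, RPS27 being the second. Without RPS19BP1, chosen after seeing the data, the medians were -0.59 and -0.36 for peak and late over early lactation. Without the 6 members at unusual loci, also chosen after seeing the data, they were -0.34 for late over early and 0.28 for late over peak lactation. The other 69 values for the members as a whole counted as the same, which for a count of members means within 1.5-fold of the main one. Among them, 2 instead of 3 members were at 2-fold for peak over early lactation with the 1 FPKM filter or without unusual loci. Without the 10 highest genes in the sum, 60 instead of 62 members were lower in the peak than in the early library. The median of all protein-coding genes on that scale was 0.27. The alternative limited to proteins of at least 100 residues was not run, as no protein lengths were used here. The cause was not tested where the construction of an alternative does not show it.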
